A study of Mus musculus with 12 samples.

Results

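Germinal center B cells carry a kappa or a lambda light chain, and the cells described here are those of the dark zone (DZ) and the light zone (LZ) of lymph node germinal centers, divided by the light chain they transcribed. The first division was chosen by constant region counts. A cell entered it with at least 5 unique molecular identifiers (UMIs, counted molecules) over Igkc, the kappa constant gene, and Iglc1, Iglc2 and Iglc3, the lambda constant genes. Cells with summed Iglc above 50% of these UMIs were called lambda C, and cells with Igkc above 90% were called kappa C. Of 6000 cells in the series 5253 were DZ or LZ, and 2659 of these fell on a side, 2607 as lambda C and 52 as kappa C. Another 2305 lay between the sides and 289 had under 5 UMIs.

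The cells came from draining lymph nodes of 3 mice primed with NP-KLH, the hapten NP on the carrier KLH, in Sigma Adjuvant System. All mice had received tamoxifen by gavage 5 days before collection, on day 16 of the primary response, and live IgD-negative eYFP-positive cells were sorted, so no untreated or unmarked cells are in the comparison. No source used here gives strain, age or the alleles behind the eYFP mark. Libraries were droplet-based and read from the 5' end of transcripts, plasma cells and other B cells were captured in separate wells, and the mice were told apart by barcoded antibodies to CD45. Both sides of every comparison below come from the same 3 animals, numbered mouse 1 to 3, and the mouse is the replicate.

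The DZ is where germinal center B cells divide and mutate their V genes, and the LZ is where they take up antigen and receive T cell help. Most mouse B cells use kappa, and lambda is rearranged mainly when kappa has failed or has been edited. The antibody response of many mouse strains to NP is known for lambda chains paired with the heavy chain V gene Ighv1-72, also called VH186.2. A 5' library reads mostly from the V segment of an immunoglobulin transcript, so that light chain V genes give a readout of the chain that the constant region rule did not use.

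The sequences that the comparison rests on are those of the lambda V genes Iglv1 and Iglv2, of Ighv1-72 and its nearest copy Ighv1-62-3, and of the start of the 3 lambda constant genes. They were taken from GENCODE vM21 transcripts on build GRCm38 and are written 5' to 3' in the direction of transcription. Iglv1 (chr16:19085022-19085321, minus strand) and Iglv2 (chr16:19260406-19260705, minus strand) are shown over 300 coding bases of the V exon, and capitals mark the 9 bases at which they differ.
Iglv1: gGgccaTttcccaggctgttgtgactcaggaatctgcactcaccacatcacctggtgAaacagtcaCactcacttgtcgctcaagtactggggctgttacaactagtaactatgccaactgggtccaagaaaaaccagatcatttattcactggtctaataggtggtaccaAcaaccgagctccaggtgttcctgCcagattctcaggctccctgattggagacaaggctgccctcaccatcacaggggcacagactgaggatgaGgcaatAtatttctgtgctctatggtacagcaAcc
Iglv2: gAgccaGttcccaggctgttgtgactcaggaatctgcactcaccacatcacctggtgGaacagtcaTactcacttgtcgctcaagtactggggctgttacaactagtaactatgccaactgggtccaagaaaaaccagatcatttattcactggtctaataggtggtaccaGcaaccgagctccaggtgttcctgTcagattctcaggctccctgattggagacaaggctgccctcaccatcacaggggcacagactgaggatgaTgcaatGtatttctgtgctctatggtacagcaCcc
Ighv1-72 (chr12:115757989-115758288, minus strand) and Ighv1-62-3 (chr12:115461004-115461303, minus strand) are shown over 300 coding bases because reads of such a close copy could be split between them, and capitals mark their 3 differences.
Ighv1-72: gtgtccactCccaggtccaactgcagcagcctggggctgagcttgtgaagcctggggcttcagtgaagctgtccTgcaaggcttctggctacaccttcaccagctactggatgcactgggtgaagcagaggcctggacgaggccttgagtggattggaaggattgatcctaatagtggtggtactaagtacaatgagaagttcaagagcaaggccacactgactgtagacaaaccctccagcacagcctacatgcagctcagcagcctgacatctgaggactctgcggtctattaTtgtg
Ighv1-62-3: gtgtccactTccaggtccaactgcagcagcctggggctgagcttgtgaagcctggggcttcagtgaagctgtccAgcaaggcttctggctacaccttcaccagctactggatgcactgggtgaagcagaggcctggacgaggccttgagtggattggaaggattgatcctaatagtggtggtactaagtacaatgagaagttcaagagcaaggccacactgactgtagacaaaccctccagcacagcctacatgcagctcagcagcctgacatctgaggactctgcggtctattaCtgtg
The first 150 coding bases of Iglc1 (chr16:19061922-19062071), Iglc2 (chr16:19198703-19198852) and Iglc3 (chr16:19065532-19065681), all on the minus strand, are shown because their UMIs set the rule, with capitals where not all 3 genes share the base.
Iglc1: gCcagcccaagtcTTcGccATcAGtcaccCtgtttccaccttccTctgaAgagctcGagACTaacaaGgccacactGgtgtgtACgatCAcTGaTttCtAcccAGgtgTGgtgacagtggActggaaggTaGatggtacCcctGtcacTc
Iglc2: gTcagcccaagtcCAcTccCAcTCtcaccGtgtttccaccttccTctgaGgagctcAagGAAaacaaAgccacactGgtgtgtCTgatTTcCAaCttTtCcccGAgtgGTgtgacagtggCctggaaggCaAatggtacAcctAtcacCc
Iglc3: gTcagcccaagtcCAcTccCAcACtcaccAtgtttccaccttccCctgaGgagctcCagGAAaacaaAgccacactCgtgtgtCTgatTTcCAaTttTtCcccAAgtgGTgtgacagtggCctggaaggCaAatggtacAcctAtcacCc
Iglc2 and Iglc3 differed at 7 of these 150 bases, Iglc1 and Iglc2 at 34 and Iglc1 and Iglc3 at 33. An annotated antisense transcript, 2010309G21Rik, overlaps Iglc1, Iglc3 and Iglv1, and no source used here says whether the counting used strand.

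The constant region counts formed 1 broad distribution. Of 4964 cells with the minimum, 4545 (91.6%) had an Iglc share between 10 and 90%, and the median share was 53.3%. The boundaries ran through dense parts of this range: 268 cells lay between 50 and 55% and 475 between 45 and 50%. At the other boundary 16 cells lay between 90 and 92.5% Igkc and 40 between 87.5 and 90%. At the minimum, 153 cells had exactly 5 UMIs and 126 had 1 UMI fewer.

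Light chain V gene UMIs divided the cells more clearly, but not cleanly on the lambda side. Over Igkv and Iglv genes, 5235 cells had at least 5 UMIs, the median Iglv share was 2.1%, and 882 cells (16.8%) lay between 10 and 90%. A second division was therefore made after the constant region UMIs had been seen. Cells with at least 5 V gene UMIs were called lambda V with Iglv above 50% and kappa V with Igkv above 90%. This gave 774 lambda V cells (188, 273 and 313 in mice 1, 2 and 3), 4011 kappa V cells (918, 1398 and 1695), 450 cells between and 18 under the minimum. Iglv was above 90% in only 92, 132 and 93 of the lambda V cells of mice 1, 2 and 3. Most lambda V cells were thus mixed, with an Iglv share of 50 to 90%. At the lambda V boundary 42 cells lay just inside and 37 just outside within 5 percentage points, and 10 cells had exactly 5 UMIs against 9 with 1 fewer.

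**Figure D1:**
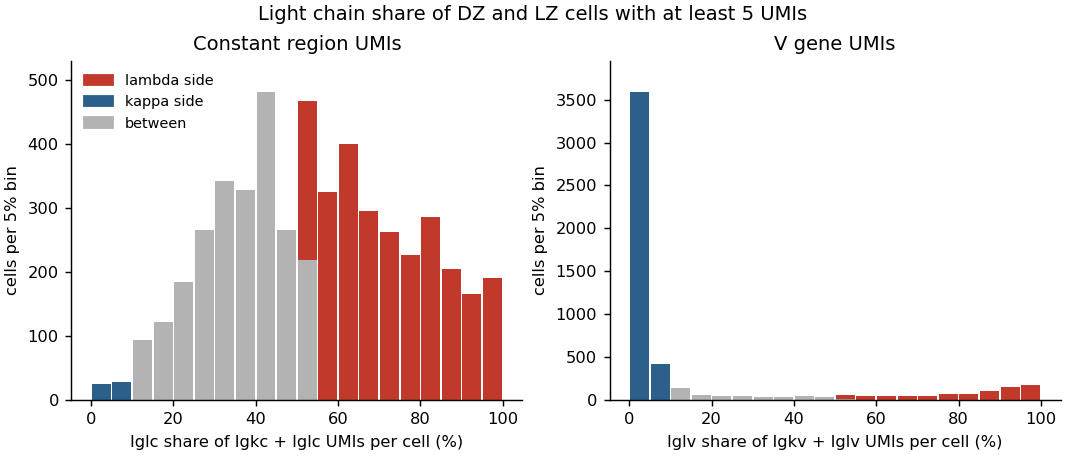
Cells per bin of 5 percentage points by the lambda share of light chain UMIs, from constant region genes on the left and from V genes on the right. Bars are DZ and LZ cells of 3 mice with at least 5 such UMIs, coloured by side. The constant region shares form 1 broad hump with a median of 53.3%. Most V gene shares are near 0, and a second, spread-out group of cells rises toward 100%.

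The 2 divisions disagreed for most cells called lambda C. Of 2607 lambda C cells 463 (17.8%) were lambda V and 1920 (73.6%) were kappa V. Of 52 kappa C cells 9 (17.3%) were lambda V and 37 (71.2%) were kappa V. The median lambda C cell held 48 Igkv UMIs and 1 Iglv UMI, and the median kappa C cell held 32.5 Igkv UMIs and 1 Iglv UMI. Iglv made up 21.5, 20.0 and 19.3% of V gene UMIs in lambda C cells of mice 1, 2 and 3, against 21.6, 30.0 and 31.0% in kappa C cells. The label lambda against kappa thus went against the V gene counts on the constant region sides, which are called by their rule from here on, while lambda V and kappa V name the V gene sides.

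Counted per cell, the constant genes differed between V gene sides in Igkc and Iglc3 but little in Iglc1 and Iglc2. Igkc averaged 5.32, 2.92 and 6.96 UMIs in lambda V cells of mice 1, 2 and 3, against 10.44, 10.9 and 11.2 in kappa V cells. Iglc1 averaged 2.68, 2.93 and 2.69 UMIs in lambda V cells, against 2.88, 2.94 and 2.73 in kappa V cells. Iglc3 averaged 2.53, 2.77 and 2.19 UMIs in lambda V cells, against 5.28, 5.23 and 5.13 in kappa V cells. Kappa V cells thus held more Iglc3 and about as much Iglc1 as lambda V cells, and Igkc was not absent from lambda V cells. The lambda V rule also admitted Igkv UMIs, and the sums held them. Iglv made up 82.3, 86.3 and 78.4% of V gene UMIs in lambda V cells of mice 1, 2 and 3. In kappa V cells it made up 1.46, 1.35 and 1.41%. These values bear on the light chain transcript that set the sides and are given as a description. The origin of the Igkc UMIs in lambda V cells, and of the Iglc UMIs in kappa V cells, was not tested.

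**Figure D2:**
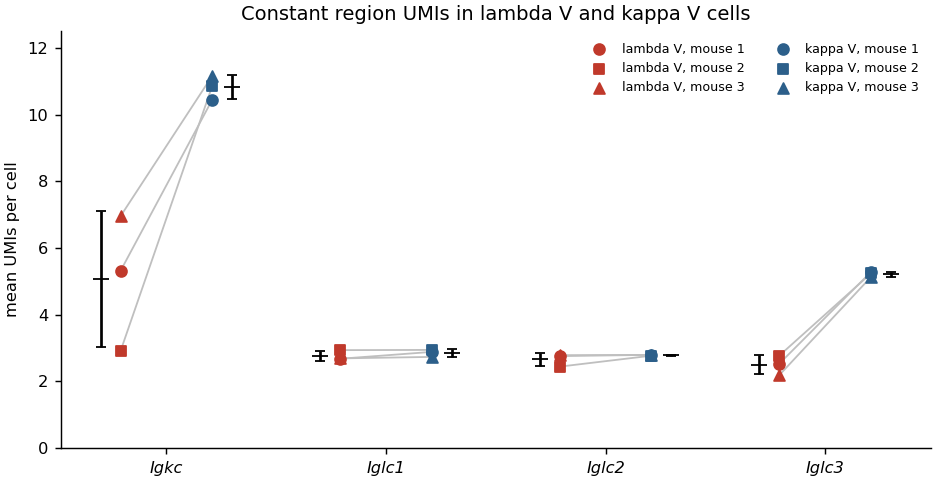
Mean UMIs per cell of Igkc, Iglc1, Iglc2 and Iglc3 in lambda V cells (red, left of each pair) and kappa V cells (blue, right). Each symbol is 1 mouse, lines join the sides of a mouse, and black marks give the mean and SD over 3 mice. Igkc and Iglc3 lie lower in lambda V cells of all 3 mice, whereas Iglc1 overlaps.

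Plasma cells, which were annotated by the authors and lie outside the comparison, showed constant regions closer to the V genes. Iglc made up 92.4, 89.4 and 86.2% of constant UMIs in 7, 13 and 17 lambda V plasma cells, against 24.1, 24.8 and 18.6% in 34, 45 and 15 kappa V plasma cells. In DZ and LZ cells the same share was 59.95, 73.6 and 52.4% in lambda V cells, against 51.2, 50.2 and 48.8% in kappa V cells. Lambda V plasma cells held a mean of 212 Iglc1 UMIs, against 41.9 in kappa V plasma cells, and the mean of Iglc3 was 9.84 against 21.1. Total constant UMIs in DZ and LZ cells were low, with medians per mouse of 9, 10 and 11 in lambda V cells and 19 in kappa V cells of every mouse.

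Iglv1 was the main light V gene of 716 of 774 lambda V cells (92.5%; 91.0, 91.2 and 94.6% by mouse), Iglv2 of 44 and Iglv3 of 13. Levels below are CPM, a gene's UMIs over those of the summed cells, with TMM scaling. Iglv1 reached 7366, 6824 and 7227 CPM in lambda V sums, against 103, 92.8 and 87.4 CPM in kappa V sums. Iglv2 stood at 654, 755 and 675 CPM in lambda V sums, against 7.12, 5.45 and 7.99 CPM in kappa V sums. Iglv3 varied most between mice, with 408, 137 and 49.1 CPM in lambda V sums against 23.9, 25.8 and 22.1 CPM in kappa V sums. With 9 differences over 300 bases, reads of Iglv1 and Iglv2 may be split in part between them.

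Kappa V cells spread over many V genes. The most abundant, Igkv9-120, held 7.57% of Igkv UMIs (7.83, 5.29 and 9.59% by mouse). Igkv3-12 held 2.53, 0.679 and 14.3% in mice 1, 2 and 3, and Igkv3-2 held 3.75, 12.1 and 1.20%, so the leading kappa genes differed between animals. The remaining 7 of the 10 most abundant, Igkv9-124, Igkv10-96, Igkv10-94, Igkv14-111, Igkv1-135, Igkv12-44 and Igkv6-23, held between 3.64 and 5.01% each over the 3 mice.

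The heavy chain V gene, which neither rule used, differed between the V gene sides in each mouse. A cell was given a heavy V call where 1 Ighv gene had at least 2 UMIs and over 50% of the cell's Ighv UMIs. Ighv1-72, the canonical anti-NP heavy chain gene, was called in 74 of 139 lambda V cells with a call in mouse 1, in 103 of 205 in mouse 2 and in 169 of 233 in mouse 3. In kappa V cells it was called in 3 of 806, 25 of 1192 and 6 of 1492. The shares were 53.2, 50.2 and 72.5% in lambda V cells, against 0.372, 2.10 and 0.402% in kappa V cells. The groups did not overlap, and the difference was 57.7 ± 12.7 percentage points (SD of the differences, n = 3 mice, exact two-sided sign-flip p = 0.25, 0.325 after adjustment over 13 measures). As a share of all Ighv UMIs, Ighv1-72 made up 33.7, 26.8 and 46.9% in lambda V cells, against 0.528, 1.03 and 0.423% in kappa V cells.

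Within lambda V cells, Ighv1-72 went with Iglv1. It was called in 335 of 531 Iglv1 cells with a heavy V call (63.1%; 56.3, 54.1 and 74.5% by mouse), in 9 of 35 Iglv2 cells and in 2 of 11 Iglv3 cells. Called lambda V cells used 49 heavy V genes in 577 cells, led by Ighv1-72 in 346 (59.97%), with Ighv14-3 next in 28 and Ighv1-22 in 25. Kappa V cells with a call used 98 heavy V genes in 3490 cells, led by Ighv1-22 in 503 (14.4%) and Ighv1-53 in 246 (7.05%), with Ighv1-72 in 34. The numbers of genes, 49 and 98, come from unequal numbers of cells and were not compared at equal size. Cells of 1 clone share both V genes and clones were not resolved, so these cells are not independent. Ighv1-62-3, the copy shown above, held 11 UMIs in lambda V cells and 10 in kappa V cells, against 3185 and 465 for Ighv1-72. Ighv1-53 and Ighv1-64, at 12 differences over 305 bases, were the next closest.

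Summed per mouse and tested with edgeR over all genes, 54 of 9409 genes (0.574%) passed an adjusted p of 0.05 between lambda V and kappa V, 8 higher and 46 lower. Of 66 Ighv genes tested 41 passed, 3 higher and 38 lower, and 27 of the 41 did not overlap between the sides. That last count was taken among genes that had already passed, with no share over all genes to set beside it. The median log2 fold change of the tested Ighv genes was -1.94, while that of all genes was 0.00. Among cells called for a heavy V gene other than Ighv1-72, 71 Ighv genes were tested and their median was -0.89. Of these, 31 passed, 8 higher and 23 lower. The part of Ighv1-72 in the lower values of the other Ighv genes over all cells was not tested. Ighv1-72 reached 516, 359 and 606 CPM in lambda V sums, against 12.7, 20.4 and 9.43 CPM in kappa V sums. Its log2 fold change was 5.11 ± 0.16 (SE; edgeR adjusted p = 4.3e-18), and it was higher in 3 of 3 mice.

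The other 2 heavy V genes that rose did so unevenly. Ighv14-2 stood at 113, 38.4 and 26.7 CPM in lambda V sums, against 30.7, 9.98 and 2.02 CPM in kappa V sums (log2 fold change 2.19). Ighv1-83 stood at 19.7, 1.29 and 130 CPM in lambda V sums, against 3.91, 1.34 and 1.079 CPM in kappa V sums; mouse 2 showed no such difference. Among those that fell, Ighv1-85, Ighv1-39 and Ighv1-54 had log2 fold changes of -4.44, -4.27 and -4.26. Ighv1-80 had 1 UMI in lambda V cells and 488 in kappa V cells, a ratio of 0.0105 after scaling to all UMIs of each side (95% interval 0.000267 to 0.0590, counting error only), and Ighv2-5 had 2 and 364 UMIs, a ratio of 0.0283 (0.00341 to 0.103). Ighv1-22, the leading gene of kappa V cells, stood at 23.1, 134 and 19.8 CPM in lambda V sums, against 205, 328 and 174 CPM in kappa V sums (log2 fold change -2.03). Without mouse 2 the fit gave 90 calls over all genes.

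IgM was the most frequent isotype on both sides. The isotype was the most abundant heavy constant transcript, with at least 2 UMIs. IgM was called in 55.7, 53.7 and 60.3% of lambda V cells with an isotype, against 57.8, 55.3 and 60.6% of kappa V cells. IgG1 was called in 29.5, 21.6 and 14.0% of lambda V cells, against 36.3, 23.8 and 18.6% of kappa V cells, lower in 3 of 3 mice by 4.51 ± 2.27 percentage points on average. IgG2b was called in 11.4, 15.8 and 20.2% of lambda V cells, against 3.10, 13.3 and 13.1% of kappa V cells, higher in 3 of 3 mice by 5.98 ± 3.05. Both differences had an exact sign-flip p of 0.25 (0.325 adjusted over 13 measures), and the ranges of the sides overlapped. With a call that required 5 UMIs and over 90% of heavy constant UMIs, these differences were -0.0823 for IgG1 and 0.407 for IgG2b.

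The transcripts of the heavy constant genes did not pass the test. Ighg2b stood at 69.8, 80.6 and 96.8 CPM in lambda V sums, against 25.0, 73.8 and 78.6 CPM in kappa V sums (log2 fold change 0.44 ± 0.12 SE, edgeR adjusted p = 0.169). Ighg1 stood at 192, 125 and 99.0 CPM in lambda V sums, against 230, 136 and 121 CPM in kappa V sums (-0.23 ± 0.06 SE, edgeR adjusted p = 0.111). None of the 8 heavy constant genes passed, with 4 at an unadjusted p under 0.05 in edgeR.

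**Figure D3:**
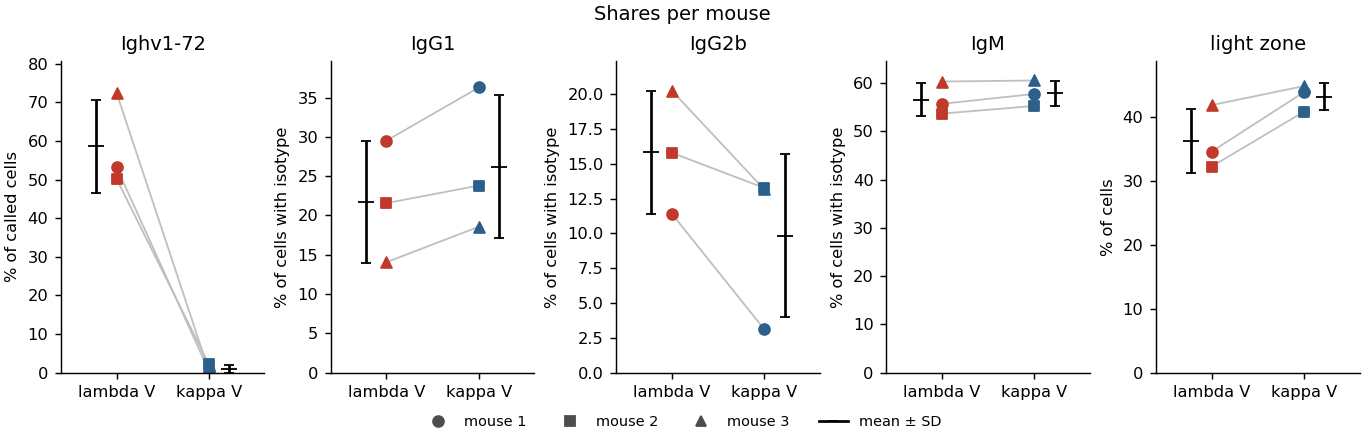
Percent of cells in lambda V (red, left) and kappa V cells (blue, right) that had an Ighv1-72 call, an IgG1, IgG2b or IgM call, or lay in the light zone. Symbols are mice, lines join the sides of a mouse, and black marks give mean and SD over 3 mice. The Ighv1-72 shares do not overlap (50.2 to 72.5% against 0.372 to 2.10%), whereas the isotype shares overlap between sides.

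The LZ share was lower in lambda V cells of each mouse. LZ cells made up 34.6, 32.2 and 41.9% of lambda V cells, against 43.9, 40.8 and 44.8% of kappa V cells. The difference was -6.97 ± 3.47 percentage points, lower in 3 of 3 mice, with an exact sign-flip p of 0.25 (0.325 adjusted). Seen from the states, lambda V cells were 19.3, 18.3 and 16.3% of DZ cells on a V gene side and 13.9, 13.4 and 14.7% of LZ cells. They were 14.3, 19.6 and 19.0% of the authors' LZtoDZ cells and 12.2, 7.35 and 9.23% of preMem cells. Among plasma cells they were 17.1% of 41, 22.4% of 58 and 53.1% of 32 cells, so mouse 3 stood apart there.

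The S phase share was higher in lambda V cells than in kappa V cells of mice 1 and 3 and lower in mouse 2. By the authors' calls 34.6, 31.5 and 39.3% of lambda V cells were in S phase, against 31.7, 34.8 and 29.9% of kappa V cells, and 24.5, 27.5 and 24.0% of lambda V cells were in G2/M, against 22.2, 26.04 and 23.2%. Median UMIs per cell were 7033.5, 7537 and 7305 in lambda V cells, against 6777.5, 7495.5 and 6979 in kappa V cells. The summed RNA of the 3 mice came to 10002568, 15150263 and 17637739 UMIs over DZ and LZ cells. Transcripts of other cell types were rare, with T cell markers at 0.768 to 2.02 CPM (unscaled) in lambda V cells and 0.755 to 1.87 in kappa V cells. Cd3e, Cd3g, Trbc2 and Cd8a were at 0 in every lambda V sum, and Trbc2 was also at 0 in every kappa V sum. Myeloid markers stood at 0 to 3.45 CPM in lambda V cells and 1.29 to 6.64 in kappa V cells, and naive B cell markers at 117 to 151 CPM in lambda V cells and 152 to 155 in kappa V cells, without overlap. Germinal center identity genes summed to 2445 to 2536 CPM in lambda V cells and 2387 to 2435 in kappa V cells. The part of these markers in the results was not tested.

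Among genes not annotated as immunoglobulin genes 13 passed between lambda V and kappa V. Rpia, which encodes ribose 5-phosphate isomerase of the pentose phosphate pathway, stood at 73.9, 85.3 and 100.6 CPM in lambda V sums, against 130 CPM in kappa V sums of mice 1 and 2 and 129 CPM in mouse 3. The sides did not overlap and the log2 fold change was -0.56 ± 0.07 (SE; edgeR adjusted p = 2.39e-05). The transcript RP23-435I4.11, an ID that the annotation used here does not name, stood at 128, 57.3 and 209 CPM in lambda V sums, against 361, 361 and 410 CPM in kappa V sums (-1.54 ± 0.14 SE, edgeR adjusted p = 1.19e-08; DESeq2 adjusted p = 0.118). A second such ID, RP23-247I11.8, stood at 9.49, 9.48 and 10.3 CPM in lambda V sums, against 30.0, 23.7 and 20.9 CPM in kappa V sums. In the gene order of the counts RP23-435I4.11 came directly before Igkc. Its lambda V levels, like the Igkc UMIs above, were lowest in mouse 2 and highest in mouse 3. Whether it reads the kappa locus, and so the light chain that set the sides, was not tested.

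Surface receptors of the light zone list were among the genes that fell. Cd72, which encodes an inhibitory B cell surface receptor, stood at 62.4, 84.9 and 84.2 CPM in lambda V sums, against 108, 111 and 103 CPM in kappa V sums (log2 fold change -0.44 ± 0.08 SE, edgeR adjusted p = 0.00236). Cd40, which encodes the receptor for CD40 ligand on helper T cells, stood at 53.6, 47.0 and 60.6 CPM in lambda V sums, against 74.0, 65.8 and 72.8 CPM in kappa V sums (-0.39 ± 0.08 SE, edgeR adjusted p = 0.0155). The sides overlapped for neither gene. Both calls were lost without the mouse block and with DESeq2. Without mouse 1, 2 or 3 in turn the adjusted p of Cd40 was 0.132, 0.146 and 0.0814 in edgeR, and without mouse 1 that of Cd72 was 0.0666. Myl12b, a myosin light chain gene, fell by 0.25 on the log2 scale, Lgals9, which encodes galectin-9, by 0.74, and the zinc finger gene Zfp426 by 1.26. These 3 lost their calls with DESeq2, without the mouse block, and without mouse 1 or mouse 3.

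Of the genes that rose, Id3, which encodes an inhibitor of E protein transcription factors, stood at 480, 477 and 476 CPM in lambda V sums, against 408, 413 and 426 CPM in kappa V sums (log2 fold change 0.20 ± 0.04 SE, edgeR adjusted p = 0.00548). Lipc, which encodes hepatic lipase, stood at 58.3, 44.4 and 55.2 CPM in lambda V sums, against 38.1, 33.8 and 40.6 CPM in kappa V sums (0.47 ± 0.09 SE, edgeR adjusted p = 0.007). Pafah1b3 and the tubulin gene Tubb5 rose by 0.20 and 0.13 on the log2 scale, and Adgb, at under 6 CPM, by 1.73. Without the mouse block none of these 5 passed, and with DESeq2 Tubb5 alone did. Id3, Lipc and Tubb5 lost their calls without mouse 1 and without mouse 3, Pafah1b3 without mouse 1 and without mouse 2, and Adgb without mouse 2 and without mouse 3.

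**Figure D4:**
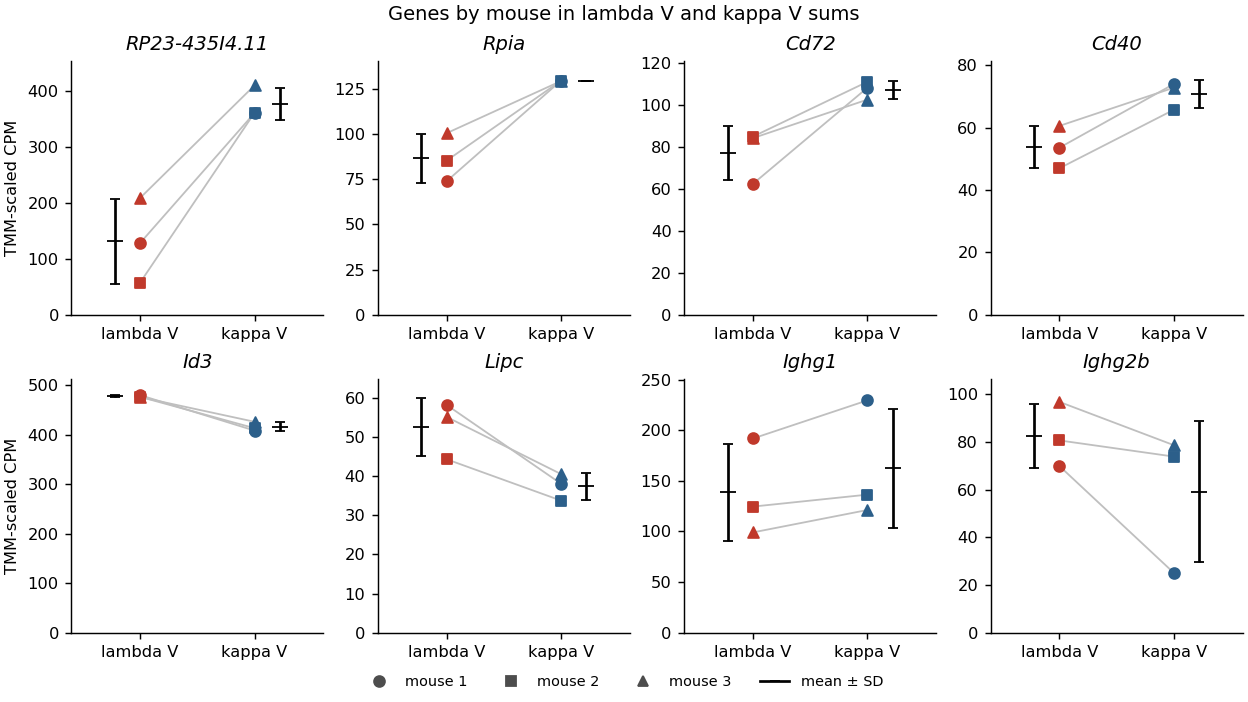
TMM-scaled CPM of 6 genes that passed the test and of Ighg1 and Ighg2b, which did not, in lambda V sums (red, left) and kappa V sums (blue, right). Symbols are mice, and black marks give mean and SD over 3 mice. Rpia, Cd72, Cd40 and RP23-435I4.11 lie lower in lambda V sums of all 3 mice, and Id3 and Lipc lie higher.

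Over all genes 641 of 9409 (6.81%) had an unadjusted p under 0.05 in this fit, against which the lists may be read. Of 22 light zone genes, such as Cd83, Myc and the receptors above, 19 were tested. Cd40 and Cd72 passed and fell, 16 of 19 had a negative log2 fold change, and the median was -0.19, against 0.00 over all genes. With zone as a term, in a fit with other sums and fewer genes tested, 14 of 19 were negative and the median was -0.06. Cd40 and Cd72 passed in that fit, but neither kept its call in DZ cells alone or in LZ cells alone. The part of the zone in the list's values was not tested. Cd83, a light zone surface marker, stood at 235, 174 and 245 CPM in lambda V sums, against 269, 224 and 235 CPM in kappa V sums and did not pass. Cd40 was also the 1 of 11 T cell help genes to pass, and Cd72 the 1 of 6 inhibitory receptors and phosphatases. Of 21 tested genes induced by the B cell receptor or CD40, none passed in edgeR, 7 had an unadjusted p under 0.05, 17 were negative and the median was -0.13.

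Proliferation and presentation genes had smaller medians. Of 23 S phase genes none passed in edgeR, 8 had an unadjusted p under 0.05, 19 were positive and the median log2 fold change was 0.09. The 13 MHC class II presentation genes were all negative, with a median of -0.05 and none passing in edgeR (1 at an unadjusted p under 0.05). Of 24 G2/M genes 15 were positive, none passed in edgeR, 5 had an unadjusted p under 0.05 and the median was 0.05. Of 16 B cell receptor signalling genes none passed in edgeR, 1 had an unadjusted p under 0.05, and the median was 0.03. The receptor's signal chains Cd79a and Cd79b had log2 fold changes of -0.01 and 0.03, and Vpreb3, of the surrogate light chain family, had -0.09. Germinal center genes had log2 fold changes of -0.21 for Bcl6, 0.05 for the dark zone receptor gene Cxcr4, 0.10 for Cd86 and 0.06 for Mki67, and none of these passed. Myc and the plasma cell regulator Irf4 had -0.29 and -0.51 at low counts and did not pass. Genes of the unfolded protein response (19 tested, median -0.01), hypermutation and switch repair (15, 0.02), plasma cells (10, -0.06) and the BCL2 family (12, -0.08) had none passing in edgeR and 0 at an unadjusted p under 0.05. None passed in edgeR among 10 dark zone genes (median 0.01, 3 at an unadjusted p under 0.05), 11 germinal center identity genes (0.04, 2), 21 Myc and growth genes (-0.03, 2) or 11 memory genes (0.03, 1).

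Zone was then entered as a term, with 12 sums of side, zone and mouse. This gave 60 calls of 8759 genes (0.685%), 14 higher and 46 lower, and 45 of the 54 earlier calls (83.3%) were among them. Rpia kept its call in that fit, with 79.9, 92.3 and 115 CPM in lambda V DZ sums against 151, 149 and 154 CPM in kappa V DZ sums. In the LZ it stood at 60.2, 66.9 and 77.4 CPM in lambda V sums, against 93.4, 93.7 and 91.1 CPM in kappa V sums. Pcna, the replication clamp gene, and Rgs13, a regulator of chemokine receptor signalling in germinal center B cells, passed with zone as a term, at 0.23 and 0.20, and not in the fit without it. Pafah1b3 and Lipc lost their calls there. In a test of whether the side difference itself differed between LZ and DZ, 1 gene passed, Ighv7-3, for which 1 mouse supplied nearly all lambda V counts.

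Rpia is the annotated neighbour of the kappa locus. The Igk cluster lies at chr6:67555497-70726966 with 166 immunoglobulin genes in the annotation. Rpia, at chr6:70765720-70792232 on the minus strand, lies 38754 bases beyond its end. It was the nearest tested gene with an annotated position on that side. The 10 nearest tested genes were taken on each side of the Igk and Igl clusters, with immunoglobulin genes left out. On Rpia's side of Igk, Rpia alone of 10 passed, and the log2 fold changes ran from -0.56 to 0.13. The next gene, Eif2ak3, a kinase gene of the unfolded protein response, had -0.08. On the other side of Igk none of 10 passed in edgeR, with 4 at an unadjusted p under 0.05 and values from -0.31 to 0.41. Around the Igl cluster (chr16:19061618-19260859, 12 genes) none of the 10 genes on either side passed in edgeR, with 2 and 1 at an unadjusted p under 0.05 and values from -0.45 to 0.38. These counts stand beside the 0.574% of all genes that passed.

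**Figure D5:**
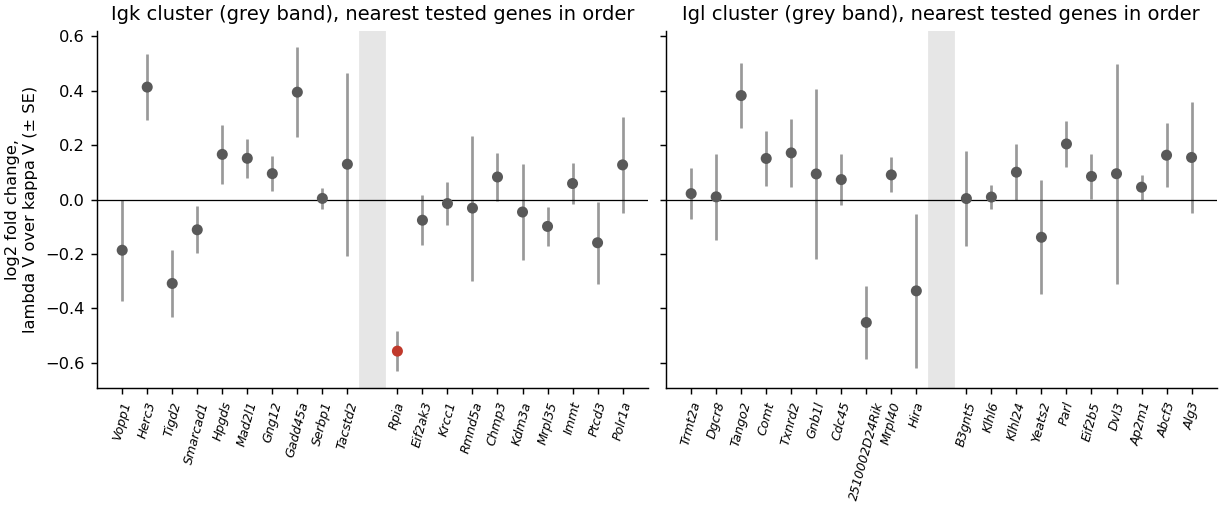
Log2 fold change, lambda V over kappa V, with its SE, for the 10 nearest tested genes on each side of the Igk cluster (left panel) and of the Igl cluster (right panel), in chromosomal order. The grey band stands for the cluster and is not to scale, and red marks an adjusted p under 0.05. Rpia, at -0.56, is the red point next to the Igk cluster, and no other gene shown passed.

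Ighv1-72 was set aside by comparing lambda V with kappa V among cells whose heavy V call was another gene. There 35 of 7821 genes (0.448%) passed, 9 higher and 26 lower, and 31 of them were Ighv genes, so heavy V use still differed between these sides. Rpia stood at 75.9, 79.1 and 69.2 CPM in these lambda V sums, against 129, 124 and 129 CPM in kappa V sums (log2 fold change -0.75 ± 0.13 SE, edgeR adjusted p = 0.00126). RP23-435I4.11 stood at 165, 88.9 and 183 CPM in lambda V sums, against 360, 375 and 411 CPM in kappa V sums (-1.48). Rgs13 stood at 262, 309 and 348 CPM in lambda V sums, against 249, 230 and 235 CPM in kappa V sums (0.38 ± 0.09 SE, edgeR adjusted p = 0.0443). Lamtor3, a lysosomal scaffold gene, fell by 0.71 with an edgeR adjusted p of 0.0499. With DESeq2 none of these non-immunoglobulin genes passed. Rgs13 also lost its call without mouse 2 and without mouse 3, and Lamtor3 without any 1 of the mice. Ighv14-2 was higher in these lambda V cells of all 3 mice, at 3.62 on the log2 scale, and Ighv14-3 in mice 1 and 2, at 2.93. Without mouse 3 the fit gave 55 calls. Of the 54 calls between all lambda V and kappa V cells 27 (50%) were shared. The light zone genes had 16 of 19 negative with a median of -0.27 here and none passed in edgeR, with 7 at an unadjusted p under 0.05 beside 469 of all 7821 genes.

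Among lambda V cells, those with Ighv1-72 numbered 346 and those with another heavy V gene 231. IgG2b was called in 21.2, 17.3 and 22.1% of Ighv1-72 cells, against 2.13, 10.8 and 11.76% of cells with another heavy V gene, and the groups did not overlap. IgG1 was called in 9.09, 20.0 and 7.14% of Ighv1-72 cells, against 38.3, 17.6 and 31.4% of the others, lower in mice 1 and 3 and higher in mouse 2. LZ cells made up 33.8, 37.9 and 39.6% of Ighv1-72 cells, against 38.5, 28.4 and 43.8% of the others. Across all genes none of 7750 passed in edgeR (398 at an unadjusted p under 0.05) and none in DESeq2 (117). Ighg2b stood at 122, 86.7 and 115 CPM in Ighv1-72 sums, against 28.5, 75.9 and 63.4 CPM in the others (0.81, edgeR adjusted p = 0.352). Rpia did not pass, at 0.22.

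The same split within lambda C cells was also a split by light chain V gene. Of 245 lambda C cells with Ighv1-72, 213 (86.9%) were lambda V and 19 kappa V, whereas of 1939 with another heavy V gene 140 (7.22%) were lambda V and 1638 kappa V. Here 13 of 8514 genes (0.153%) passed, 10 higher and 3 lower, and without mouse 1 or mouse 3 there were 27 and 20. RP23-435I4.11 (-2.42), Rpia (-0.57) and the early activation gene Cd69 (-1.59, with 17 UMIs in Ighv1-72 cells) fell on the log2 scale. Ighg2b stood at 86.6, 91.8 and 131 CPM in Ighv1-72 sums, against 21.03, 57.7 and 75.6 CPM in the others (0.94, edgeR adjusted p = 0.0177). The other calls were Birc5 (0.54), Ccna2 (0.51), H2afx (0.49), Cenpe (0.46), Tubb5 (0.40), Cdca8 (0.39), Cks2 (0.37), H2afz (0.25) and Ptma (0.21). DESeq2 kept Birc5, Tubb5, H2afx, RP23-435I4.11 and Ighg2b. The strict heavy V call (at least 5 UMIs and over 90%) lost 7 calls: Cenpe, Tubb5, Cdca8, H2afz, Ptma, Rpia and Cd69. Without mouse 2, 8 were lost, with Birc5, Tubb5, Ccna2, H2afx and RP23-435I4.11 kept. Rpia, Cks2 and Cdca8 were lost without mouse 1, and Cenpe, Cdca8 and H2afz without mouse 3. All 24 G2/M genes were positive, 4 passed and their median was 0.42, against 0.11 with 17 positive and none passing within lambda V cells. LZ cells made up 28.8, 33.7 and 31.6% of these Ighv1-72 cells, against 41.3, 38.6 and 42.9% of the others, and the part of the zone in this result was not tested.

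Returning to the constant region sides, the 52 kappa C cells (16, 13 and 23 by mouse) set the precision. Ighv1-72 was called in 9.52, 12.4 and 11.2% of lambda C cells with a heavy V call, against 2 of 15, none and 3 of 19 kappa C cells with one (exact sign-flip p = 1). LZ cells made up 39.3, 36.1 and 41.4% of lambda C cells, against 68.8, 61.5 and 52.2% of kappa C cells, without overlap but at an exact p of 0.25 (1 after adjustment over 13 measures).

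Across all genes 22 of 8633 (0.255%) passed between lambda C and kappa C in edgeR, 10 higher and 12 lower. DESeq2 gave 0 calls, with 127 at an unadjusted p under 0.05, and edgeR without the mouse block gave 0, with 722. The median log2 fold change of all genes was 0.09 with TMM scaling, 0.018 with DESeq2 size factors and 0.012 with total counts, and DESeq2 size factors gave 5 higher and 15 lower genes and total counts 5 and 16. Without mouse 1, 2 or 3 in turn the calls were 10, 4 and 36. Cyp4f18, a cytochrome P450 gene, stood at 68.6, 64.3 and 71.999 CPM in lambda C sums, against 23.3, 19.1 and 12.8 CPM in kappa C sums, which held 7 of its UMIs. The B cell factor gene Pax5 (1.28), the B cell surface gene Ly6d (1.51), Pafah1b3 (0.78), Anxa2 (0.53), Top1 (0.48), Crip1 (0.41) and Rpl7 (0.37) were higher. Marcksl1 (-0.66), the chaperone gene Hspa5 (-0.61) and H2afx (-0.50) were lower in 3 of 3 mice. Among the other calls, Hist1h2ae (-0.67) and Top2a (-0.67) were lower in mice 1 and 2 and higher in mouse 3, and Ifi27l2a (-0.50) was higher in mouse 1.

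Heavy V genes on the constant region sides rested on few mice. Of 47 tested 8 passed. Ighv3-1 had 1431 UMIs in lambda C cells and 0 in kappa C cells. After the same scaling the ratio was at least 8.41, taking 3 UMIs over all kappa C cells as the limit for a count of 0. That bound counts UMIs as independent, although 1 cell can hold several UMIs of its heavy V gene. Ighv3-1 was called in 56 of 2184 lambda C cells with a heavy V call, 52 of them in mouse 3. Only 45 kappa C cells had a call, so the bound does not hold for cells. Ighv1-12 had 1157 and 3 UMIs, a ratio of 6.80 (95% interval 2.32 to 33.0, counting error only). Of 61 lambda C cells called for it, 49 came from mouse 1. Ighv1-81 stood at 68.0, 142 and 79.2 CPM in lambda C sums, against 784, 19.1 and 0 CPM in kappa C sums, so that 1 kappa C sum held nearly all of its counts there. The calls shared between the constant region and V gene divisions were 6 genes, 27.3% of 22 and 11.1% of 54: Ighv1-12, Ighv1-76, Ighv1-83, Ighv3-1, Ighv3-6 and Pafah1b3. Of 24 G2/M genes 21 were negative (median -0.28) and Top2a passed, and of 19 unfolded protein response genes 17 were negative (median -0.24) and Hspa5 passed. Over all genes the median was 0.09 and 0.255% passed. Top2a and Hspa5 both lost their calls with DESeq2 and without the mouse block, and these lists rest on 52 kappa C cells. By the authors' calls 18.2, 21.8 and 20.2% of lambda C cells were in G2/M, against 37.5, 23.1 and 21.7% of kappa C cells, and the part of this in the list values was not tested.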

How the data were processed

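Raw UMI counts per gene and cell, with the authors' cell states, cycle calls and mouse labels, were used as deposited by the authors. The submitters' processing notes name Cell Ranger, Seurat and the build mm10 (GRCm38), and no source used here gives the counting settings. The 12 libraries were pooled, and mouse and state came from the deposited cell table, so library was not separable. BCR libraries were not analysed here, and no doublet caller was run. Cells between the sides, 450 of them by V genes, were left out. No barcode was shared between the 2 barcode series.

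Counts were summed per mouse and side. edgeR 4.0.16 (R 4.3.3) quasi-likelihood tests used TMM scaling, filterByExpr, a mouse block and Benjamini-Hochberg adjustment over all genes tested, at 0.05. DESeq2 1.42.0 was an alternative. The scripts were tested on simulated data. The counts simulated for the fits held set fold changes and no mouse effect, so they do not bear on differences between animals. A minimum of 20 cells per sum held for the zone and heavy V subdivisions, not for fits on DZ or LZ cells alone or on the strict heavy V call. For shares, signs of the 3 mouse differences were flipped in every way (exact permutation test, two-sided), with 0.25 as the smallest p, adjusted over 13 measures (Python 3.11.15, scipy 1.17.1). Intervals on UMI ratios are exact binomial, at 95%, and cover counting error only. They treat UMIs as independent, which UMIs of 1 cell or 1 clone are not. Light chain genes were selected on and were not tested. Whether the 3 mice came from separate experiments is not stated.

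Both sides of a pair come from the same animal. Same-mouse deviations correlated at 0.208, 0.210 and 0.119 over 6880 genes for V sides, and at 0.00736, 0.0643 and 0.0233 over 6800 genes for constant region sides. Between different mice the values ran from -0.184 to -0.00150 for V sides and from -0.0846 to 0.0515 for constant region sides. Same-mouse and different-mouse values thus overlapped on the constant region sides, where a pairing was not evident.

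The members and the 25 gene lists (323 entries, 16 genes not in the matrix used) were chosen with earlier results of these data known. Named genes were the 10 largest changes each way past the threshold with at least 50 CPM on the higher side and the same direction in 3 mice, immunoglobulin and predicted genes left out, plus the 5 largest Ighv changes each way, the immunoglobulin constant genes and members of lists. GENCODE vM21 matched 13311 of 13886 gene symbols.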

Additional observations from a re-analysis of the deposited data

Results flagged for a closer look

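Ighv7-3 was singled out because its lambda V minus kappa V difference was not the same in the light zone as in the dark zone, by a test of the difference itself. The log2 difference of differences, LZ minus DZ, was -6.96 ± 1.24 (SE; edgeR adjusted p = 0.0398 over 8759 genes). In the LZ it had 1, 0 and 0 UMIs in lambda V cells of mice 1, 2 and 3, against 4, 68 and 124 in kappa V cells. In the DZ it had 0, 0 and 55 UMIs in lambda V cells, against 6, 22 and 39 in kappa V cells. The DZ value of lambda V cells thus came from mouse 3 alone. DESeq2 called no gene in this test, with 223 at an unadjusted p under 0.05.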

How the results depend on the processing

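Among lambda V against kappa V calls (54), DESeq2 gave 24, DZ cells alone 30, immunoglobulin genes left out 16, lambda above 90% 132, no filter 112 and the fit without the replicate block 9, and leaving out 1 mouse gave 43 to 90. Among lambda C against kappa C calls (22), DESeq2 gave 0, DZ alone 3, LZ alone 10, immunoglobulin genes left out 11, LZtoDZ cells added 94 and no replicate block 0, and leaving out 1 mouse gave 4 to 36. Within other heavy V genes (35), DESeq2 gave 6, no filter 66 and leaving out 1 mouse 28 to 55. For Ighv1-72 in lambda C cells (13), these were 5, 50 and 11 to 27. In lambda V cells (0), no filter gave 2 and leaving out 1 mouse 0 to 3. For the interaction with zone (1), DESeq2 gave 0, no filter 19 and leaving out 1 mouse 1 to 6. The causes were not tested. Between all lambda V and kappa V cells Rpia kept its call in each alternative except LZ cells alone (-0.40, edgeR adjusted p = 0.204), and within other heavy V genes it lost it with DESeq2. Among these alternatives, leaving out the smaller barcode series removed no DZ or LZ cells and so could not change a call. On the constant region sides DESeq2 reversed Ighv3-6 to 0.96 and Ighv1-81 to 2.28. Leaving out 1 mouse gave log2 fold changes of -2.37 to 2.48 for Ighv3-6, -1.99 to 3.79 for Ighv1-81, -4.46 to 1.25 for Ighv5-6 and -0.86 to 0.091 for Ifi27l2a, each positive without mouse 3, 1, 2 and 3 in that order.

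Share differences are lambda minus kappa, in percentage points or UMIs. On the constant region sides, lambda above 90% gave 21.3 for Ighv1-72 of called cells, 12.2 for Ighv1-72 of Ighv UMIs and -6.33 for the light constant median. IgG1 was 11.05 after thinning to 2000 UMIs, and DZ alone gave -28.8 for G2/M, -11.3 for the light constant median and 1 for the heavy constant median. On the V gene sides, lambda above 90% gave 2.52 for IgM, -7.82 for IgG1, 1.88 for IgG2c, -11.4 for LZ, 5.19 for G2/M, 1154 for median UMIs and 0.667 for the heavy constant median. The strict isotype call gave -2.72 for IgM, -0.0823 for IgG1, 0.407 for IgG2b and 2.497 for IgG2c, and thinning gave -0.0407 for IgG2c. DZ alone gave 1.43 for IgM, -7.22 for IgG1, -0.918 for G2/M, -303.8 for median UMIs and -10.8 for the light constant median. LZ alone gave -6.72 for IgM, 1.595 for IgG1 and 479.8 for median UMIs. On the constant region sides the zone fit, the interaction and the fit within other heavy V genes were not run, since kappa C sums held under 20 cells. DZ alone and LZ alone there rest on kappa C sums of 5 to 12 cells.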
